A study of Mus musculus with 27 samples.

Results

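The genes described here are the 36 listed genes of pyruvate metabolism and the citric acid cycle, chosen by gene symbol through the platform's probe annotation. Of these, 33 genes had 61 probes among the 45281 probes of the array, and Mpc1, Mpc2 and Got1 had no probe under their symbol and were not analysed here. A probe was kept in a tissue when its detection p was under 0.05 on all 3 arrays of at least 1 diet. This kept 45 probes of 27 genes in liver, 46 probes of 30 genes in epididymal white adipose tissue (WAT) and 48 probes of 30 genes in gastrocnemius muscle, out of 17518, 19455 and 16332 kept probes of the whole array. One kept probe stood for each of 15 genes in liver, 19 in WAT and 19 in muscle, and the other 12, 11 and 11 genes had several kept probes each. The probe of Pdhx, which anchors the E3 enzyme to the pyruvate dehydrogenase core, was kept in no tissue.

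Male wild-type C57BL/6J mice arrived at 4 weeks of age, were acclimated for 1 week and then ate 1 of 3 diets for 16 weeks. The UR group ate a high-fat diet (HFD) of 20% fat and 1% cholesterol with 0.05% (w/w) ursolic acid, a plant triterpenoid; the HFD group ate the same diet without it; the ND group ate an AIN-76 normal diet. Ursolic acid was therefore given only on the HFD, and all mice had been fasted before the tissues were taken. RNA was pooled within each group, and 3 pools per diet and tissue were hybridised to 27 arrays, so n counts pools, which mice made up a pool is not given, and the study's text and the sample descriptions give different numbers of mice.

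Between 38.7% and 40.0% of probes were detected on UR liver arrays, 36.5% to 37.2% on HFD and 34.2% to 35.0% on ND liver arrays, and the 3 diets did not overlap. The shares were 42.2% to 44.4% in WAT over all diets, and in muscle 37.6% to 38.1% with UR, 35.5% to 35.8% with the HFD and 35.8% to 36.7% with the ND. Hepatocyte markers had kept probes for 7 of 8 genes in liver and for none of 8 in WAT or muscle, and skeletal muscle markers had kept probes for 8 of 8 genes in muscle, 4 of 8 in WAT and 1 of 8 in liver. Values below are log2 signals after quantile normalization within a tissue unless stated otherwise, and a probe is said to have risen or fallen when limma's adjusted p, over all kept probes of the tissue, was under 0.05. The arrays measured whole tissue, in which fewer cells of a type and less RNA per cell cannot be told apart.

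Pyruvate from glycolysis enters mitochondria through the MPC carrier and is turned into acetyl-CoA by the pyruvate dehydrogenase complex, built from the E1 subunits Pdha1 and Pdhb, the E2 core Dlat and the E3 subunit Dld. Pyruvate dehydrogenase kinases (Pdk1 to Pdk4) switch the complex off by phosphorylating E1, the phosphatases Pdp1 and Pdp2 switch it on again, and Pdk4 is known for its induction by fasting and fatty acids, when tissues spare glucose. Acetyl-CoA is then oxidised in the cycle, which pyruvate carboxylase (Pcx) refills, while cytosolic and NADP-linked isozymes of the cycle enzymes supply NADPH and move reducing equivalents between compartments.

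The sequences that precede the start sites of 4 of these genes are shown. Idh2 and Pdk4 had the largest rise and fall with UR in liver and Pdk2 the largest fall on the HFD in WAT, and all 3 probes of Pdp2 fell on the HFD in liver and with UR in muscle. Each is the 250 bases before a RefSeq start site in GRCm38.p6, in lower case with any match to a searched motif in capitals. Pdk2 has 2 start sites, and the window of the other is not shown. Idh2 lies at chr7:80115351-80115600 on the minus strand, Pdk4 at chr6:5496279-5496528 on the minus strand, Pdk2 at chr11:95041372-95041621 on the minus strand and Pdp2 at chr8:104591222-104591471 on the plus strand.
Idh2: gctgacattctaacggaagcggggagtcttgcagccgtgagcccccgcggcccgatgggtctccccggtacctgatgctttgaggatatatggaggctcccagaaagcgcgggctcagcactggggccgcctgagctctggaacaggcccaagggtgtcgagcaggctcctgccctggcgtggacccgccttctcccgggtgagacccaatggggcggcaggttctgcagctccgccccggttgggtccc
Pdk4: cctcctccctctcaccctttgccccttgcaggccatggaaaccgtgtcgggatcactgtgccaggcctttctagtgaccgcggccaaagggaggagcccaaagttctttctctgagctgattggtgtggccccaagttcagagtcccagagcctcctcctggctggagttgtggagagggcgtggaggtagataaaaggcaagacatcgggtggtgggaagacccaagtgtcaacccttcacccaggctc
Pdk2: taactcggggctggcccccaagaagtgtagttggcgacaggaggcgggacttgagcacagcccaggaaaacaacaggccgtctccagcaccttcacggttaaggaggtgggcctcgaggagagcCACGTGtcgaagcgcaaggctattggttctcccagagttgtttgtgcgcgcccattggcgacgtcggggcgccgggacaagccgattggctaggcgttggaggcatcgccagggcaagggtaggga
Pdp2: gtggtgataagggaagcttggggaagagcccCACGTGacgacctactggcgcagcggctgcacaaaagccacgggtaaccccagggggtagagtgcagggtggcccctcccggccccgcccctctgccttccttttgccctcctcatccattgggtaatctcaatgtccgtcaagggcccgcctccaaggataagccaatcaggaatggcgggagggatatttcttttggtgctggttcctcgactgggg

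Both strands of the same 250-base window were searched for 3 motifs, none of which contains another. Windows were searched for 33 listed genes, which are not the 33 genes with probes: Me2, Idh3a and Pdp1 had no window used here. The E-box CACGTG was found in a window of Ldha, Ogdh, Pcx, Pdk2 and Pdp2, 5 of these 33 genes, against 6.86% of all 27025 genes. It stood 126 bases before the shown Pdk2 start and 219 bases before the Pdp2 start. The other Pdk2 window held no E-box. The oestrogen-related receptor element TCAAGGTCA was in no member window, against 0.387% of 32851 windows. GCATGCGC, part of the NRF1 site, was in windows of Glud1 and Ogdh, 2 of the 33 genes, against 2.56% of all 27025 genes. The shown windows of Idh2 and Pdk4 held none of these letters.

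How much of each transcript the 3 tissues carried was compared first, in ND mice, with the 27 arrays normalized together and each probe compared only with itself. Most member probes gave their highest signal in muscle. Of 51 probes detected in liver or muscle, 17 were higher in liver and 32 lower, against 87.7% of all probes called (41.4% higher and 46.3% lower), and of 50 probes in WAT or muscle, 7 were higher in WAT and 40 lower, against 83.2% called (43.5% higher and 39.6% lower). Between liver and WAT, 25 of 49 probes were higher in liver and 19 lower, against 84.3% called (39.5% higher and 44.8% lower). Median differences of the member probes were 0.24 for liver minus WAT, -0.60 for liver minus muscle and -1.12 for WAT minus muscle on the log2 scale, with -0.05, -0.07 and 0.04 over all probes tested.

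The widest difference was in Idh2, the mitochondrial NADP-linked isocitrate dehydrogenase, at a log2 level of 9.68 ± 0.06 in liver, 11.75 ± 0.06 in WAT and 14.92 ± 0.05 in muscle (SD, n = 3). Pdk4 stood at 11.75 ± 0.20 in liver, 12.94 ± 0.44 in WAT and 15.76 ± 0.09 in muscle, and Mdh2, the mitochondrial malate dehydrogenase, at 10.23 ± 0.12, 11.97 ± 0.15 and 14.17 ± 0.02 in the same tissues. Citrate synthase (Cs), the entry step of the cycle, followed the same order, at 11.16 ± 0.16 in liver, 12.87 ± 0.11 in WAT and 14.24 ± 0.07 in muscle. In each of these 4 genes every pair of tissues differed by limma, with muscle highest and liver lowest.

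Other members ran the other way. All 3 probes of Glud1 and of Pdp2 were highest in liver, as were Ldha and both probes of Suclg2, with liver minus muscle differences of 2.03 for Glud1 ILMN_2763080 and 1.67 for Pdp2 ILMN_2477276. Pyruvate carboxylase (Pcx, probe ILMN_2748361), which makes oxaloacetate from pyruvate for gluconeogenesis and lipogenesis, had levels of 11.03 ± 0.02 in liver, 10.79 ± 0.17 in WAT and 8.01 ± 0.09 in muscle. Idh1, the cytosolic NADP-linked isozyme, had 13.23 ± 0.10 in liver, 12.42 ± 0.07 in WAT and 10.69 ± 0.16 in muscle. Probe ILMN_1235050 of Idh3b, a regulatory subunit of the NAD-linked isocitrate dehydrogenase, had 13.18 ± 0.04 in liver and 13.10 ± 0.06 in WAT, a pair that did not pass the test (adjusted p = 0.13), against 10.23 ± 0.05 in muscle. Its second probe, ILMN_2565490, was also highest in liver, at 8.85 ± 0.05, but lowest in WAT, at 7.99 ± 0.07, with 8.50 ± 0.07 in muscle.

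Detection set further limits. Dld, the E3 enzyme shared by the pyruvate and 2-oxoglutarate dehydrogenases, was detected on no ND liver array, and its signal was at least 2.89-fold lower in liver than in WAT and at least 10.3-fold lower than in muscle; these bounds set the mean of the brighter tissue against the lowest signal among detected probes, or the probe's own signal where that was higher. Sucla2, the ATP-forming succinyl-CoA ligase subunit, and Me3, a mitochondrial malic enzyme, had kept probes in muscle but not in liver or WAT. Pdk3 and Me2, the NAD-linked mitochondrial malic enzyme, had kept probes only in WAT.

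**Figure D1:**
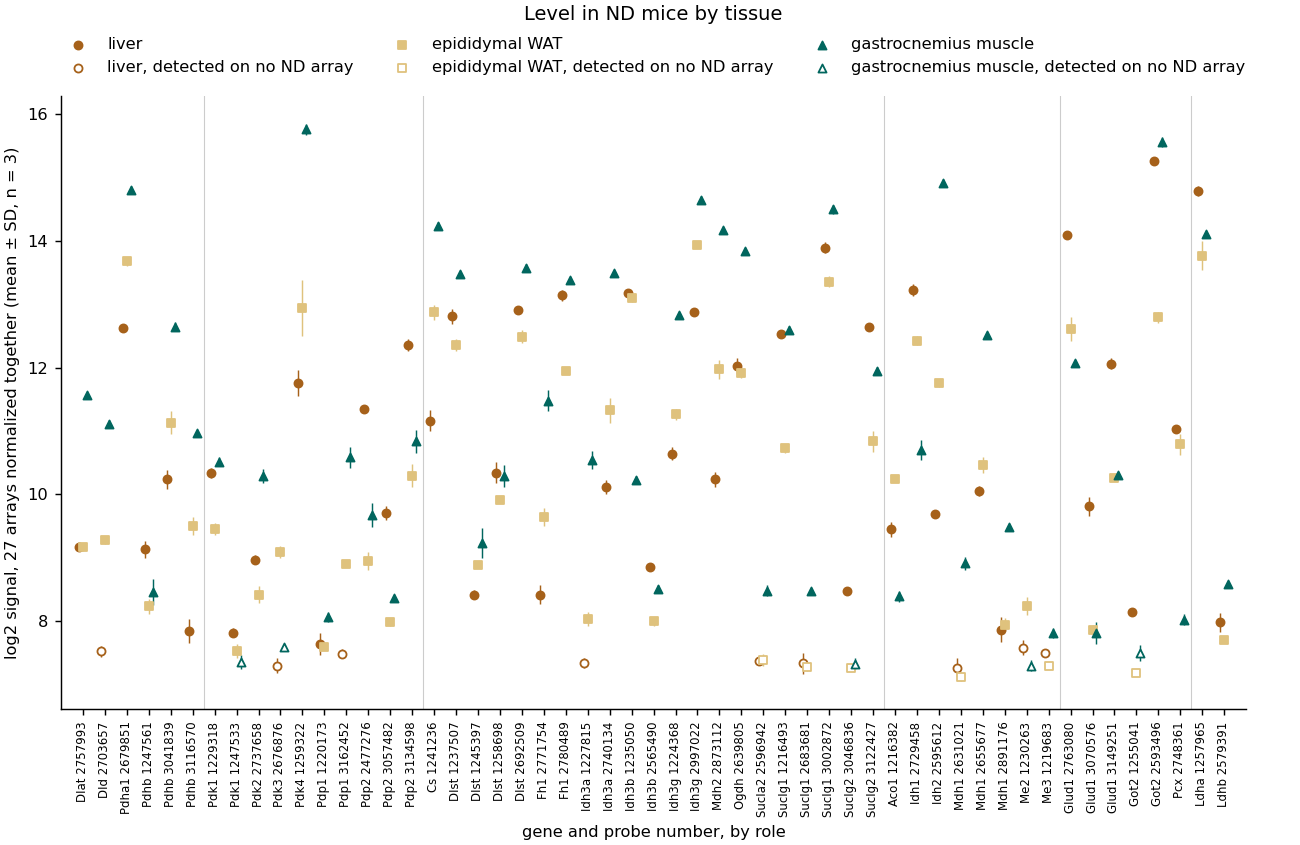
Mean log2 signal (± SD, n = 3 pools) of each of 53 member probes in ND liver, WAT and muscle, with the 27 arrays normalized together and genes ordered by role. Open symbols mark probes detected on no ND array of that tissue; Idh2, Pdk4, Mdh2 and Cs are highest in muscle, and Pcx and Idh1 in liver.

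In the liver, the effect of ursolic acid on the HFD was the main question, and a small set of enzymes rose steeply with UR while Pdk4 fell. Of 45 kept member probes, 13 rose and 10 fell against the HFD, beside 55.1% of all liver probes called (21.9% higher and 33.3% lower). The 15 single-probe genes gave 4 that rose and 3 that fell, and the 30 probes of the 12 multi-probe genes gave 9 and 7. The 3 UR arrays lay apart from the 3 HFD arrays for 27 of 45 probes, beside 64.2% of all probes. The median change was -0.04 for the member probes and -0.07 for all probes. Before normalization the median signal was 165 to 177 on UR arrays, 158.0 to 159.7 on HFD and 150.0 to 152 on ND arrays, and how the arrays were scaled changed the balance of calls. When each array was set to the same median, called median scaling below, the median of all probes moved to 0.10, and 22 member probes rose and 4 fell. Shares of all probes called under median scaling are not given here or below. Member counts under it therefore do not set the members apart from the array.

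The isozymes of the cycle that work with NADP or in the cytosol changed most as a role group: 4 of 5 probes rose with UR, with a median of 1.27. Idh2 had log2 signals of 11.99, 12.03 and 12.19 with UR, against 9.91, 9.86 and 9.94 with the HFD and 9.56, 9.60 and 9.48 with the ND. All UR arrays were above all others, and the change against the HFD was 2.17 ± 0.07 (SE, adjusted p = 1.1e-09), the largest of any member probe in liver. Aco1, the cytosolic aconitase that also serves as an iron-regulatory protein, had 10.81, 10.80 and 10.91 with UR, against 9.41, 9.39 and 9.28 with the HFD and 9.32, 9.17 and 9.41 with the ND, a change of 1.48 ± 0.07 against the HFD (adjusted p = 5.4e-09).

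Both probes of Mdh1, the cytosolic malate dehydrogenase of the malate-aspartate shuttle, rose with UR. Probe ILMN_2655677 of Mdh1 had 11.21, 11.10 and 11.00 with UR, against 9.92, 9.61 and 9.98 with the HFD (1.27 ± 0.09, adjusted p = 1.7e-07), and probe ILMN_2891176 changed by 1.08 ± 0.09 (adjusted p = 5.2e-07). Mdh1 was the 1 multi-probe gene of 12 with every kept probe higher. The mitochondrial enzyme Mdh2, which closes the cycle, had 11.37, 11.37 and 11.21 with UR, against 10.20, 10.20 and 10.07 with the HFD, and its arrays did not overlap (1.16 ± 0.08, adjusted p = 6.7e-08). Idh1 did not pass the test (-0.10 ± 0.07, adjusted p = 0.22).

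Among the genes of pyruvate entry, Dld and 1 probe of Pdhb rose. Dld had 9.03, 9.33 and 9.17 with UR, against 7.56, 7.51 and 7.58 with the HFD and 7.49, 7.34 and 7.43 with the ND. It was detected on 3 UR, 2 HFD and 0 ND arrays; the change against the HFD was 1.62 ± 0.08 (adjusted p = 3.5e-09), and UR was at least 2.94-fold above ND. The 3 probes of Pdhb, the beta subunit of E1, differed in direction. Pdhb probe ILMN_3116570 had 9.20, 9.02 and 9.13 with UR, against 7.74, 7.56 and 7.70 with the HFD and 7.58, 7.63 and 7.88 with the ND (1.45 ± 0.09 against the HFD, adjusted p = 2.0e-08). Pdhb probe ILMN_1247561 had 8.50, 8.64 and 8.42 with UR, against 8.67, 8.85 and 9.01 with the HFD and 8.80, 9.04 and 9.06 with the ND (-0.32 ± 0.10 against the HFD, adjusted p = 0.012), a call lost with median scaling (-0.13, adjusted p = 0.27) and without HFD replicate 3 or UR replicate 3 (adjusted p = 0.053 to 0.062). The remaining Pdhb probe, ILMN_3041839, had 10.11, 10.41 and 10.37 with UR, against 10.08, 10.41 and 10.19 with the HFD and 9.99, 10.06 and 10.31 with the ND, and its arrays overlapped (0.07 ± 0.11 against the HFD, adjusted p = 0.59), but with median scaling it rose (0.34, adjusted p = 0.014). Dlat and Pdha1 did not pass the test.

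Fh1, the fumarase that hydrates fumarate to malate, also differed between probes. Fh1 probe ILMN_2771754 had 9.68, 9.65 and 9.48 with UR, against 7.98, 7.99 and 8.02 with the HFD and 8.31, 8.06 and 8.33 with the ND, a change of 1.61 ± 0.08 against the HFD (adjusted p = 5.5e-09). The other Fh1 probe, ILMN_2780489, had 12.87, 12.79 and 12.57 with UR, against 12.77, 12.71 and 12.99 with the HFD and 13.29, 13.41 and 13.21 with the ND. Here UR and HFD arrays overlapped (-0.08 ± 0.09, adjusted p = 0.47), and the HFD lay below the ND (-0.48 ± 0.09, adjusted p = 0.0021). Which transcripts each of the 2 Fh1 probes reads was not analysed here.

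Dlst, the E2 core of 2-oxoglutarate dehydrogenase, and Suclg1, the shared subunit of succinyl-CoA ligase, also had probes called in both directions, so that 3 of 12 multi-probe genes did, beside 15.9% of 3566 such genes on the array. Dlst probe ILMN_1245397 had 8.74, 8.59 and 8.60 with UR, against 7.99, 8.21 and 8.01 with the HFD (0.58 ± 0.08, adjusted p = 3.3e-05). Dlst probe ILMN_1258698 had 9.79, 9.63 and 9.52 with UR, against 9.92, 9.84 and 9.96 with the HFD (-0.26 ± 0.09, adjusted p = 0.029), and Dlst probe ILMN_1237507 had 12.67, 12.64 and 12.54, against 12.83, 12.82 and 12.78 (-0.19 ± 0.07, adjusted p = 0.037). Both of these smaller calls were lost without HFD replicate 1, HFD replicate 3, UR replicate 2 or UR replicate 3, with adjusted p values of 0.058 to 0.13. The other Dlst probes, ILMN_1214828 at 7.61, 7.52 and 7.43 with UR against 7.63, 7.56 and 7.65 with the HFD, and ILMN_2692509 at 12.84, 12.85 and 12.68 with UR against 12.89, 12.92 and 12.90 with the HFD, did not pass.

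Suclg1 probe ILMN_3002872 had 14.54, 14.51 and 14.54 with UR, against 14.24, 14.18 and 14.14 with the HFD (0.35 ± 0.06, adjusted p = 0.00019). Suclg1 probe ILMN_1216493 had 12.24, 12.31 and 12.19 with UR, against 12.47, 12.47 and 12.49 with the HFD (-0.23 ± 0.06, adjusted p = 0.0042). With median scaling, the Suclg1 probe ILMN_1216493 and the Dlst probe ILMN_1237507 turned to 0.05 and 0.08 and were no longer called. Dlst probe ILMN_1258698 stood at 0.00 there (adjusted p = 0.99), so none of Pdhb, Dlst and Suclg1 kept calls in both directions under that scaling.

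Pdk4 fell in the liver. Its signals were 8.65, 8.87 and 8.84 with UR, against 9.96, 9.86 and 9.67 with the HFD and 11.52, 11.84 and 11.94 with the ND, with no overlap between any 2 diets. The change was -1.04 ± 0.11 for UR against the HFD (adjusted p = 4.0e-06), -1.94 ± 0.11 for the HFD against the ND (adjusted p = 2.8e-07) and -2.98 ± 0.11 for UR against the ND (adjusted p = 7.4e-10); these comparisons share arrays. No other kinase passed for UR against the HFD: Pdk2 changed by -0.04 and the probes of Pdk1, a kinase induced by hypoxia, by 0.17 and -0.07. One phosphatase probe, Pdp2 ILMN_2477276, rose slightly (0.17 ± 0.07, adjusted p = 0.041).

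The cycle enzymes held 6 of the 10 falls, beside 5 rises among 19 probes. Ogdh, the E1 enzyme of 2-oxoglutarate dehydrogenase, had 11.48, 11.41 and 11.42 with UR, against 11.84, 11.92 and 12.06 with the HFD (-0.50 ± 0.08, adjusted p = 0.00017), a fall that did not pass with median scaling (-0.21, adjusted p = 0.091). Outside the cycle itself, Glud1 probe ILMN_3070576, for the glutamate dehydrogenase that feeds 2-oxoglutarate into it, had 9.02, 9.26 and 9.36, against 9.90, 9.63 and 9.72 (-0.53 ± 0.10, adjusted p = 0.00072), while the other Glud1 probes changed by -0.08 and -0.16 without passing. Suclg2 probe ILMN_3046836, for the GTP-forming ligase subunit, had 7.90, 8.02 and 8.00 with UR, against 8.21, 8.49 and 8.47 with the HFD (-0.42 ± 0.08, adjusted p = 0.00065). The other kept Suclg2 probe, ILMN_3122427, changed by 0.07 without passing. The probe of Ogdh, Glud1 ILMN_3070576 and Suclg2 ILMN_3046836 had UR arrays below every HFD array. Ldhb, the lactate dehydrogenase subunit of oxidative tissues, was detected on 0 of 3 UR liver arrays and was at least 1.17-fold lower with UR than with the HFD.

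**Figure D2:**
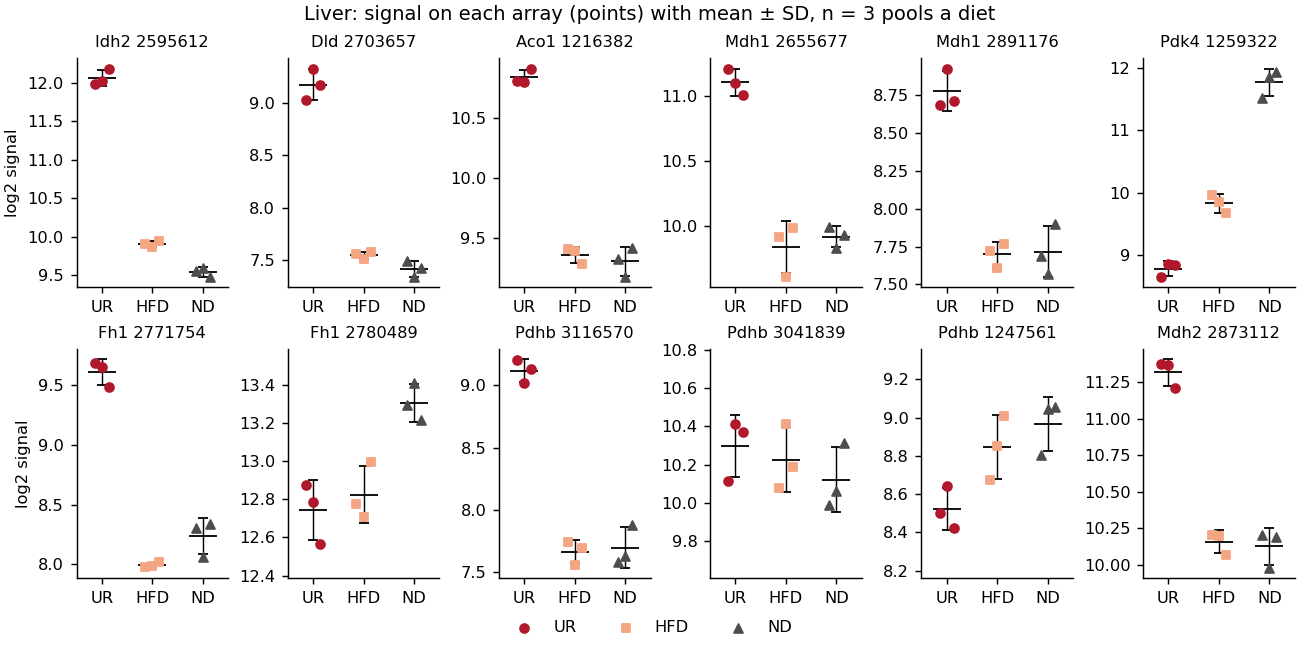
Log2 signals of 12 member probes in liver on each of the 9 arrays (points), with mean ± SD of 3 pools per diet, in the order UR, HFD, ND. Idh2, Dld, Aco1 and the probes Fh1 ILMN_2771754 and Pdhb ILMN_3116570 sit higher with UR than with either other diet, while Pdk4 is stepped, lowest with UR and highest with the ND.

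Against the ND, the HFD alone changed fewer liver probes: 4 rose and 7 fell of 45, beside 24.9% called over all probes (13.3% higher and 11.6% lower). The control of pyruvate dehydrogenase held the most falls, 4 of 7 probes. All were of the genes Pdk4 and Pdp2, and the probes of Pdk1 and Pdk2 did not pass. Beside Pdk4, all 3 probes of the phosphatase Pdp2 fell: ILMN_2477276 with 10.98, 10.84 and 10.86 on the HFD, against 11.36, 11.33 and 11.26 on the ND (-0.42 ± 0.07, adjusted p = 0.00057), ILMN_3057482 with 9.18, 9.26 and 9.16 on the HFD, against 9.55, 9.69 and 9.46 on the ND (-0.37 ± 0.07, adjusted p = 0.0021), and ILMN_3134598 by 0.29. Both Fh1 probes fell, ILMN_2771754 by 0.24 (adjusted p = 0.047, lost without any 1 of 7 arrays, at an adjusted p of 0.052 to 0.14). Dlst probe ILMN_1258698 had 9.92, 9.84 and 9.96 on the HFD, against 10.28, 10.39 and 10.04 on the ND (-0.33 ± 0.09, adjusted p = 0.021).

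The rises were those of Suclg2, Idh2, Pdha1 and Glud1. Suclg2 probe ILMN_3122427 had 13.13, 13.13 and 12.98 on the HFD, against 12.75, 12.77 and 12.64 on the ND (0.36 ± 0.07, adjusted p = 0.0024), and Idh2 changed by 0.36 ± 0.07 (adjusted p = 0.0024). Pdha1, the catalytic E1 subunit that the kinases phosphorylate, had 12.84, 13.04 and 12.85 on the HFD, against 12.70, 12.69 and 12.71 on the ND (0.21 ± 0.06, adjusted p = 0.023), and Glud1 probe ILMN_2763080 had 14.51, 14.50 and 14.54 against 14.27, 14.31 and 14.40 (0.19 ± 0.05, adjusted p = 0.016). None of these 4 had overlapping arrays, and the arrays of the HFD and the ND lay apart for 19 of the 45 probes, beside 39.6% of all probes. Leaving out ND replicate 1 reduced the called probes to 7, and with median scaling 2 rose and 6 fell, when Pdha1, Glud1 ILMN_2763080, Dlst ILMN_1258698 and Fh1 ILMN_2771754 no longer passed (adjusted p = 0.21, 0.35, 0.10 and 0.21). Each of these 4 calls was also lost without ND replicate 1. For UR against the ND, 14 probes rose and 16 fell, beside 60.1% called over all probes (25% higher and 35.1% lower), and the arrays lay apart for 34, beside 65.1%. Here 24 rose and 6 fell with median scaling, which moved the median of all probes by over 0.1, to 0.14 against -0.06.

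Other cell types' markers moved in the liver as well, and their part in the member results was not tested. With UR, 5 of 11 macrophage marker probes rose and 6 fell against the HFD (summed signal 7730 to 8916 with UR and 8678 to 11399 with the HFD), 6 of 8 endothelial probes fell, 4 of 11 hepatocyte probes rose and 3 fell, 3 of 8 fibroblast probes rose and 2 fell, and the 1 kept skeletal muscle probe did not pass. On the HFD, 10 of 11 macrophage probes rose against the ND (8678 to 11399 against 4253 to 4484), as did 5 of 8 fibroblast probes (20982 to 23269 against 15325 to 16987) and 4 of 8 endothelial probes. The remaining pathway genes that are not on the list gave 14 of 27 probes higher and 5 lower with UR. Sdhd, a membrane anchor of succinate dehydrogenase, rose by 1.97 ± 0.07, Me1, the cytosolic malic enzyme, by 1.30 ± 0.13, and a probe of the aspartate-glutamate carrier Slc25a13 by 1.06. The 5 that fell included Sdhc, also of succinate dehydrogenase (-0.20 ± 0.06), and Pkm (-0.59 ± 0.10).

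In WAT the main change came from the HFD itself, and it was a broad, shallow fall. Of 46 kept member probes, 27 fell and 1 rose on the HFD against the ND, beside 38.1% called over all probes (17.4% higher and 20.7% lower). Of 19 single-probe genes, 11 fell and Idh1 rose, and 16 of the 27 probes of the 11 multi-probe genes fell. The median change was -0.22 for the member probes and -0.03 for all probes, and the arrays of the 2 diets lay apart for 29 of 46 probes, beside 48.1% of all probes. Of the cycle enzymes 15 of 18 probes fell, of pyruvate entry 5 of 6, of the control of pyruvate dehydrogenase 4 of 9, and of lactate dehydrogenase 0 of 2.

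Pdk2, the widely expressed kinase, showed the largest fall, with 8.19, 8.32 and 8.19 on the HFD, against 8.81, 9.07 and 8.81 on the ND (-0.67 ± 0.07, adjusted p = 1.7e-05); UR arrays stood at 8.19, 8.25 and 8.28. Pdha1 had 13.23, 13.24 and 13.26 on the HFD, against 13.84, 13.87 and 13.76 on the ND (-0.58 ± 0.05, adjusted p = 2.3e-06). Pcx, needed in adipocytes for citrate export, had 10.57, 10.78 and 10.72 on the HFD, against 11.13, 11.22 and 11.44 on the ND (-0.58 ± 0.09, adjusted p = 3.0e-04). In all 3 genes every HFD and UR array lay below every ND array.

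Suclg2 probe ILMN_3122427 had 10.76, 10.64 and 10.81 on the HFD, against 11.15, 11.46 and 11.31 on the ND (-0.57 ± 0.08, adjusted p = 8.3e-05). Dlst probe ILMN_1237507 had 12.16, 12.16 and 12.23, against 12.59, 12.76 and 12.68 (-0.49 ± 0.06, adjusted p = 2.5e-05). Of the 11 multi-probe genes of WAT, Pdhb, Idh3b, Idh3g, Dlst and Fh1 had every kept probe lower, and none had calls in both directions, beside 0.528% of 3975 such genes on the array. Pdhb probe ILMN_1247561 had 8.40, 8.23 and 8.37 on the HFD, against 8.55, 8.71 and 8.82 on the ND (-0.36 ± 0.08, adjusted p = 0.0030), ILMN_3041839 had 11.05, 11.26 and 11.16, against 11.49, 11.48 and 11.77 (-0.42 ± 0.08, adjusted p = 0.0013), and ILMN_3116570 had 9.39, 9.66 and 9.63, against 9.91, 9.92 and 10.16 (-0.44 ± 0.09, adjusted p = 0.0020). All 3 Pdhb probes had every HFD array below every ND array. Fh1 probe ILMN_2780489 had 11.87, 11.94 and 11.89 on the HFD, against 12.33, 12.34 and 12.28 on the ND (-0.42 ± 0.06, adjusted p = 0.00019), and probe ILMN_2771754 of Fh1 had 9.65, 10.01 and 9.93, against 10.28, 9.99 and 10.17 (-0.28 ± 0.10, adjusted p = 0.036), with overlapping arrays and no call without ND replicate 1, ND replicate 3, HFD replicate 1 or UR replicate 2 (adjusted p = 0.053 to 0.16).

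Idh1 alone rose. It had 13.24, 13.24 and 13.14 on the HFD, against 12.71, 12.69 and 12.81 on the ND, without overlap (0.47 ± 0.06, adjusted p = 4.7e-05), and UR arrays stood at 13.19, 13.05 and 13.09. Pdk4 had 13.46, 13.55 and 13.55 on the HFD, against 12.75, 13.48 and 13.32 on the ND, and did not pass (0.34 ± 0.14, adjusted p = 0.066); without ND replicate 2 it passed (adjusted p = 0.0080). Dld had 9.42, 9.73 and 9.53 on the HFD, against 9.84, 9.72 and 9.80 on the ND, and did not pass either (-0.23 ± 0.09, adjusted p = 0.062).

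Marker genes of other cells moved with the same diets, and their part in these falls was not tested. Of 16 macrophage marker probes 15 rose on the HFD against the ND, with a summed signal of 96402 to 122003 on the HFD and 27997 to 31924 on the ND, and UR arrays stood at 111062 to 137238. Of 9 adipocyte marker probes 6 fell and 1 rose, with summed signals of 157822 to 164250 on the HFD and 143118 to 159499 on the ND. All 6 mesothelial probes fell (3110 to 4075 against 4591 to 5304), as did 5 of 6 erythroid probes. Among pathway genes outside the list, Pck1, the gluconeogenic and glyceroneogenic enzyme, fell on both probes by 1.31 and 1.25, Gpt2, the mitochondrial alanine transaminase, by 1.09, and Sdhb by 0.45 and 0.42; 8 of 23 such probes fell and 2 rose.

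**Figure D3:**
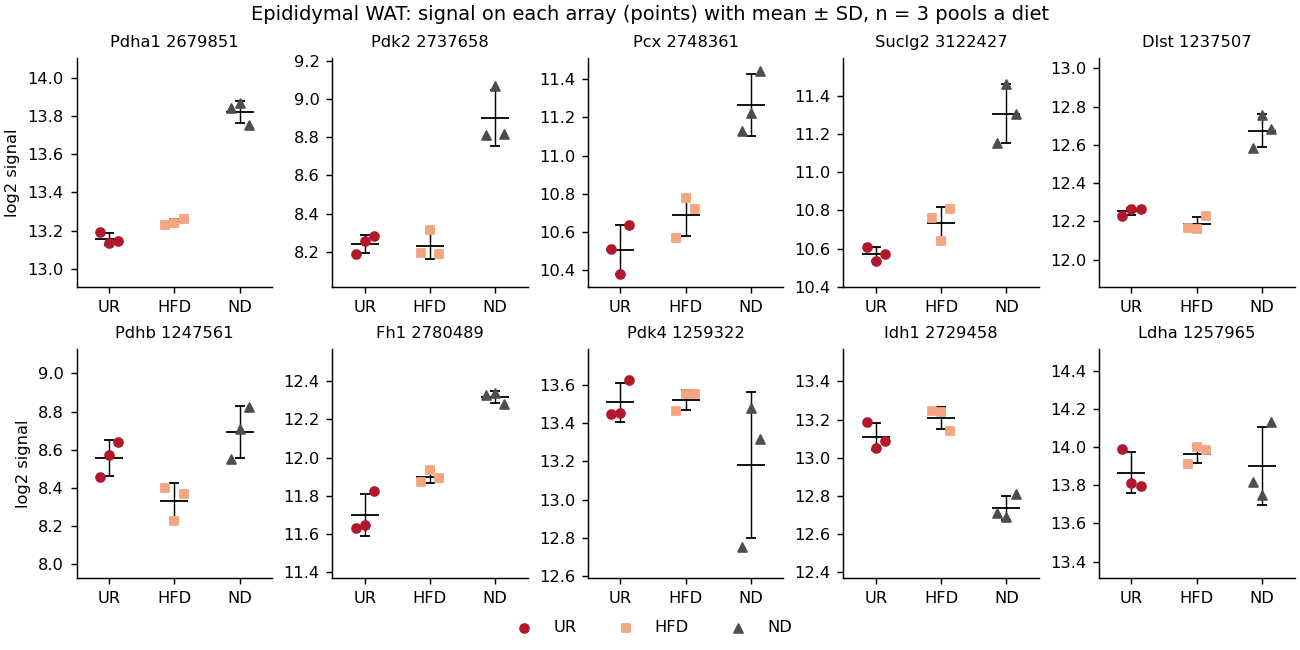
Log2 signals of 10 member probes in WAT on each of the 9 arrays (points), with mean ± SD of 3 pools per diet, in the order UR, HFD, ND. Pdha1, Pdk2, Pcx, Suclg2, Dlst and the Fh1 probe ILMN_2780489 sit lower with UR and the HFD than with the ND, and Idh1 sits higher.

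Few member probes passed with UR in WAT, 8.70% of 46, which is near the share of all probes. Against the HFD, 2 probes rose and 2 fell of 46, beside 7.54% called over all probes (3.41% higher and 4.13% lower); with median scaling 2 rose and 1 fell. All 4 belonged to multi-probe genes: none of the 19 single-probe genes passed in limma's test, and 6 had an unadjusted p under 0.05. Over all 46 probes, 20 had an unadjusted p under 0.05 by limma, 3 of them higher and 17 lower. The share of all probes at that level is not given here. The arrays of the 2 diets lay apart for 27 of 46 probes, beside 33.8% of all probes. Dlst probe ILMN_1258698 had 10.50, 10.51 and 10.53 with UR, against 10.05, 9.98 and 10.12 with the HFD and 10.38, 10.44 and 10.41 with the ND (0.46 ± 0.06 against the HFD, adjusted p = 0.00098). Dlst probe ILMN_1245397 had 9.52, 9.53 and 9.32 with UR, against 9.17, 9.11 and 9.24 with the HFD (0.28 ± 0.07, adjusted p = 0.031), whereas the other Dlst probes changed by 0.07 and -0.04 without passing.

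Fh1 probe ILMN_2771754 had 9.55, 9.48 and 9.42 with UR, against 9.65, 10.01 and 9.93 with the HFD (-0.38 ± 0.10, adjusted p = 0.032), and Pdp2 probe ILMN_2477276 had 8.85, 9.05 and 8.92, against 9.29, 9.32 and 9.24 (-0.35 ± 0.08, adjusted p = 0.022). Of these 4 probes, Dlst ILMN_1258698 alone passed whichever array was left out: the count was 1 without HFD replicate 2, HFD replicate 3 or UR replicate 1, and 2 without HFD replicate 1 or UR replicate 2. Changes of 39 of 46 probes were below 0, with a median of -0.10 against 0.00 over all probes. Against the ND, UR left 29 probes lower and 1 higher, beside 44.1% called (24.2% lower and 19.9% higher), and the arrays lay apart for 33, beside 52.5%. The 6 mesothelial marker probes fell with UR too (summed signal 1405 to 1523 with UR and 3110 to 4075 with the HFD), and 4 of 10 fibroblast probes; their part was not tested.

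In muscle, 2 of 6 probes of pyruvate entry and 7 of 20 of the cycle enzymes fell on the HFD, and with UR 2 of 6 and 6 of 20 rose while 1 cycle probe fell, in comparisons that share the HFD arrays. On the HFD, 12 of 48 member probes fell and 0 rose against the ND, beside 13% called over all probes (7.02% lower and 6.02% higher); 5 had a positive change at an unadjusted p under 0.05 in limma's test. With UR, 13 rose and 6 fell against the HFD, beside 22% called (11.8% higher and 10.2% lower). The single-probe genes gave 5 that rose and 1 that fell with UR, and the multi-probe genes 8 and 5. UR arrays lay apart from HFD arrays for 24 probes, beside 40.8% of all probes, and HFD from ND arrays for 18, beside 30.7%. With median scaling 11 probes rose and 2 fell with UR, and 18 fell on the HFD, where the median of all probes moved to -0.11 against 0.01.

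Dld had 10.79, 10.82 and 11.03 with UR, against 10.16, 9.99 and 10.16 with the HFD and 10.44, 10.49 and 10.58 with the ND. The change was 0.78 ± 0.07 for UR against the HFD (adjusted p = 1.7e-05) and -0.40 ± 0.07 for the HFD against the ND (adjusted p = 0.0029), and UR was above the ND as well (0.38 ± 0.07, adjusted p = 0.0031). Pdhb probe ILMN_3116570 had 10.57, 10.81 and 10.58 with UR, against 9.86, 9.81 and 10.15 with the HFD and 10.33, 10.37 and 10.39 with the ND (0.72 ± 0.08 with UR, adjusted p = 0.00010; -0.42 on the HFD, adjusted p = 0.0060). In both genes the HFD arrays were lowest, the ND arrays intermediate and the UR arrays highest, with no overlap.

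Fh1 probe ILMN_2771754 had 11.05, 11.02 and 11.17 with UR, against 10.35, 10.30 and 10.44 with the HFD and 10.73, 10.89 and 11.09 with the ND (0.71 ± 0.08 with UR, adjusted p = 6.0e-05; -0.53 on the HFD, adjusted p = 0.00084). Its UR and ND arrays overlapped. The other probes of these genes did not pass: Fh1 ILMN_2780489 had 12.92, 12.94 and 13.00 with UR, against 12.94, 13.02 and 12.96 with the HFD (-0.02 ± 0.05, adjusted p = 0.82), and Pdhb ILMN_3041839 had 12.20, 12.05 and 12.14, against 12.14, 12.23 and 12.26 (-0.08 ± 0.06, adjusted p = 0.31). Pdhb ILMN_1247561 had 8.21, 8.01 and 7.92 with UR, against 8.06, 8.15 and 8.40 with the HFD, and did not pass either (-0.16 ± 0.10, adjusted p = 0.26). Each of these 3 probes had overlapping arrays.

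Both NADP-linked isocitrate dehydrogenases moved with the diets in muscle. Idh2 had 14.71, 14.83 and 14.72 with UR, against 14.20, 14.18 and 14.41 with the HFD and 14.59, 14.69 and 14.70 with the ND (0.49 ± 0.06 with UR, adjusted p = 0.00015; -0.39 on the HFD, adjusted p = 0.0012). Idh1 had 9.82, 9.86 and 10.04 with UR, against 9.64, 9.45 and 9.40 with the HFD and 10.25, 10.06 and 9.94 with the ND (0.40 ± 0.09 with UR, adjusted p = 0.0048; -0.58 ± 0.09 on the HFD, adjusted p = 0.00079). For both, every HFD array was below every UR and every ND array. Smaller rises with UR that passed were those of Cs (0.29), Idh3a probe ILMN_1227815 (0.34), Idh3b probe ILMN_1235050 (0.28), Suclg1 probe ILMN_3002872 (0.28) and Aco1 (0.19), and on the HFD the first 4 of these had fallen by 0.22, 0.38, 0.21 and 0.21.

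Among the phosphatases of pyruvate dehydrogenase, 1 of 2 kept Pdp1 probes rose with UR, while all 3 kept Pdp2 probes fell. Pdp1 probe ILMN_3162452, for the calcium-stimulated form that predominates in muscle, had 10.00, 10.35 and 10.43 with UR, against 9.66, 9.68 and 9.56 with the HFD (0.63 ± 0.10, adjusted p = 0.00083). The other kept Pdp1 probe, ILMN_1220173, changed by -0.12 without passing. Pdp2 was the 1 gene of 11 with every kept probe lower. Its probe ILMN_3134598 had 10.03, 9.83 and 10.10 with UR, against 10.52, 10.29 and 10.54 with the HFD (-0.47 ± 0.09, adjusted p = 0.0035), and Pdp2 probe ILMN_2477276 had 8.90, 8.61 and 8.84, against 9.13, 9.10 and 9.21 (-0.36 ± 0.09, adjusted p = 0.013). Probe ILMN_3057482 of Pdp2 had 7.83, 7.72 and 7.79, against 8.04, 7.86 and 8.06 (-0.21 ± 0.06, adjusted p = 0.034). On all 3 Pdp2 probes the UR arrays lay below the HFD arrays. With median scaling Pdp2 ILMN_2477276 and ILMN_3057482 no longer passed (-0.29, adjusted p = 0.075, and -0.14, adjusted p = 0.26), and neither did without UR replicate 2.

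Pdk4 did not pass the test in muscle. It had 15.67, 15.32 and 15.39 with UR, against 15.51, 15.56 and 15.49 with the HFD and 15.69, 15.62 and 15.42 with the ND, so the diets overlapped (-0.06 ± 0.08 for UR against the HFD, adjusted p = 0.62). Pdk1 and Pdk2 did not pass either. Me3 was detected on 0 UR, 2 HFD and 3 ND arrays and was at least 1.05-fold lower with UR than with the HFD (adjusted p = 0.036).

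Mdh1 and Dlst had probes called in both directions with UR, 2 of 11 multi-probe genes, beside 1.87% of 3257 such genes on the array. Mdh1 probe ILMN_2631021, kept only in muscle, had 7.59, 7.68 and 7.64 with UR, against 8.25, 8.24 and 8.24 with the HFD (-0.61 ± 0.06, adjusted p = 2.7e-05). Mdh1 probe ILMN_2891176 had 9.33, 9.18 and 9.07, against 8.93, 8.87 and 8.77 (0.34 ± 0.07, adjusted p = 0.0039), and Mdh1 probe ILMN_2655677 had 12.20, 12.21 and 12.16, against 12.10, 12.13 and 11.83 (0.17 ± 0.07, adjusted p = 0.099). None of the 3 Mdh1 probes overlapped between the diets.

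Dlst probe ILMN_1258698 had 9.50, 9.49 and 9.57 with UR, against 9.23, 9.31 and 9.35 with the HFD (0.22 ± 0.07, adjusted p = 0.048), and Dlst probe ILMN_2692509 had 13.23, 13.04 and 13.03, against 13.30, 13.28 and 13.27 (-0.18 ± 0.06, adjusted p = 0.032). Both calls were lost without any 1 HFD array, UR replicate 2 or UR replicate 3 (adjusted p = 0.060 to 0.15), and with median scaling (adjusted p = 0.069 and 0.11). Dlst probe ILMN_1237507 had 13.03, 13.05 and 12.98, against 13.15, 13.16 and 13.10, and ILMN_1245397 had 8.48, 8.60 and 8.60, against 8.31, 8.52 and 8.40, without passing. On the HFD against the ND, Dlst ILMN_1258698 was lower by 0.39 (adjusted p = 0.0046).

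**Figure D4:**
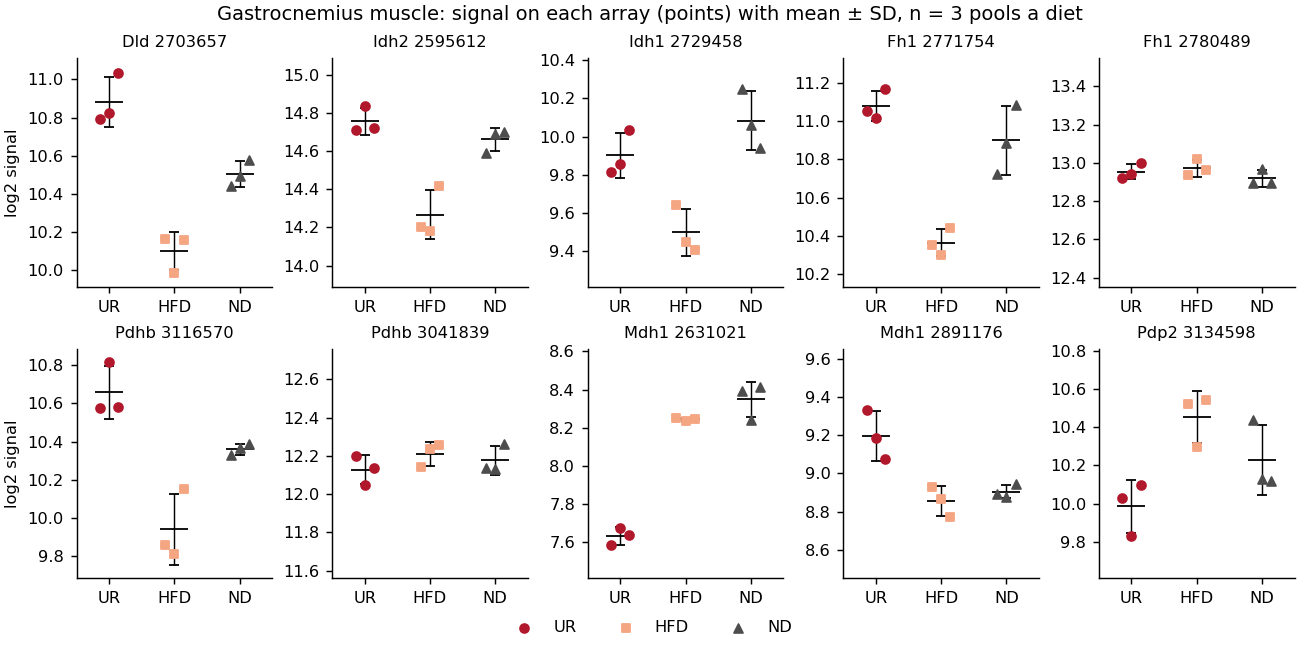
Log2 signals of 10 member probes in gastrocnemius muscle on each of the 9 arrays (points), with mean ± SD of 3 pools per diet, in the order UR, HFD, ND. Dld, Idh2 and the probes Pdhb ILMN_3116570 and Fh1 ILMN_2771754 are lowest with the HFD, and Mdh1 ILMN_2631021 is lowest with UR.

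Cell-type markers in muscle were not constant, and their part in the member results was not tested. With UR, 7 of 9 fibroblast probes rose against the HFD (summed signal 20740 to 21922 with UR and 15784 to 16684 with the HFD), as did 4 of 8 macrophage and 3 of 7 endothelial probes, and on the HFD 4 of 9 fibroblast probes fell against the ND (18549 to 20446). Only 1 of 11 probes for slow oxidative fibres rose with UR and none passed on the HFD. Outside the list, Sdhd rose by 0.73 with UR and fell by 0.55 on the HFD, and Me1 rose by 0.59 with UR. For UR against the ND, 4 member probes rose and 4 fell, beside 15.6% called (8.31% higher and 7.25% lower), and the arrays lay apart for 16, beside 36.1%. With median scaling 0 rose and 9 fell; 4 passed in all without ND replicate 1 or without UR replicate 2.

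The liver and the muscle share no arrays, and their responses to ursolic acid are set side by side here. The tissues came from the same diet groups, and whether liver and muscle pools share mice is not given. Rises shared by the liver and the muscle therefore cannot be taken as independent of each other. Of 41 member probes kept in both, 7 (17.1%) rose in both, beside 7.09% of all probes: Dld, Idh2, Aco1, Pdhb ILMN_3116570, Fh1 ILMN_2771754, Suclg1 ILMN_3002872 and Mdh1 ILMN_2891176. They were 58.3% of the 12 that rose in liver and 63.6% of the 11 that rose in muscle; over all 13982 probes kept in both tissues, 31.9% of those that rose in liver also rose in muscle and 61.1% the other way. No member probe fell in both, beside 4.06% of all probes.

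Whether the responses differed between tissues was tested directly, in 1 model over all 27 arrays, which were treated as independent. For UR against the HFD, the change was higher in liver than in WAT for 16 of 41 probes and lower for 7 (50.3% of all probes called, 20.2% higher and 30.1% lower), higher in liver than in muscle for 13 and lower for 8 (43.3% called, 20.6% higher and 22.7% lower), and lower in WAT than in muscle for 12 of 44 with none higher by limma, though 3 were at an unadjusted p under 0.05 (18.7% called, 8.35% higher and 10.4% lower). With median scaling the liver minus WAT split was 25 higher and 4 lower, and the liver minus muscle split 19 and 3. Idh2 changed 2.34 ± 0.09 more in liver than in WAT and 1.68 ± 0.09 more than in muscle. Dld changed 1.83 ± 0.12 more in liver than in WAT (adjusted p = 8.5e-13) and 0.84 ± 0.12 more than in muscle (adjusted p = 2.6e-06). Fh1 ILMN_2771754 rose in liver and muscle and fell in WAT, and its liver minus WAT difference was 1.99 ± 0.13 and its WAT minus muscle difference -1.10 ± 0.13.

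For the HFD against the ND, the change was higher in liver than in WAT for 18 of 41 probes and lower for 2 (31.5% called, 17.6% higher and 13.9% lower), higher in liver than in muscle for 9 and lower for 7 (25.8% called, 13.1% higher and 12.7% lower), and higher in WAT than in muscle for 2 of 44 and lower for 18 (30.1% called, 12.8% higher and 17.3% lower). With median scaling the liver minus muscle split was 12 higher and 3 lower, and the WAT minus muscle split 5 and 10. Pdk4, which fell in liver, had a liver minus WAT difference of -2.28 ± 0.18 (adjusted p = 1.8e-10) and a liver minus muscle difference of -1.88 ± 0.18 (adjusted p = 3.4e-08). Idh1 rose in WAT and fell in muscle, a difference of 1.05 ± 0.11 (adjusted p = 2.0e-08). Pdha1 and Suclg2 ILMN_3122427 rose in liver and fell in WAT, differences of 0.79 ± 0.07 and 0.93 ± 0.10.

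**Figure D5:**
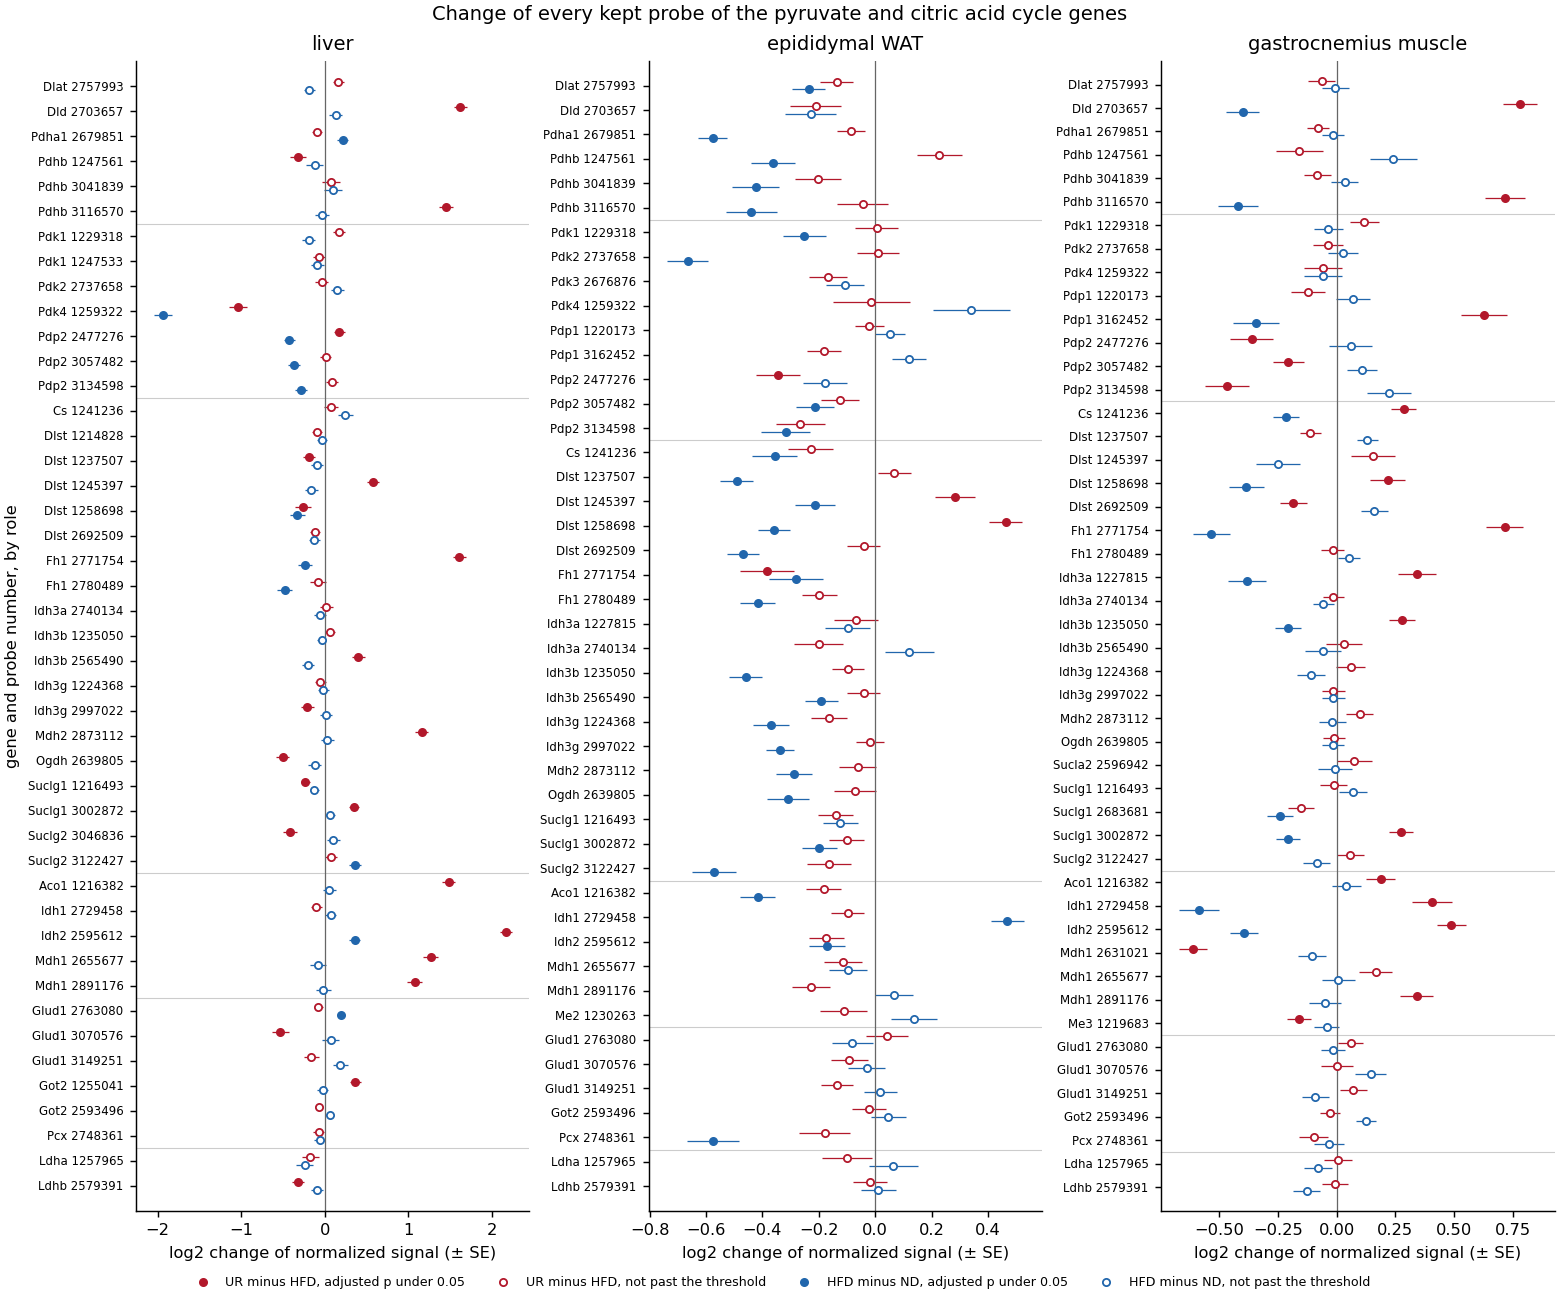
Log2 change (± SE) of every kept member probe in liver, WAT and muscle, for the UR diet against the HFD and the HFD against the ND, ordered by role; filled points passed an adjusted p of 0.05, and the scale of the horizontal axis differs between tissues. The liver shows a few rises above 1 with UR, WAT a broad shift below 0 on the HFD, and muscle small falls on the HFD and, with UR, more rises than falls.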

How the data were processed

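Liver, epididymal WAT and muscle RNA pools were hybridised to Illumina MouseWG-6 v2 arrays by the authors, who deposited 1 signal intensity and 1 detection p-value per probe and array, without background correction or normalization, and a table of normalized log2 values; its 9 muscle columns repeat its 9 WAT columns, so it served only as an alternative in liver and WAT. Here the intensities were put on the log2 scale and quantile-normalized within each tissue (27 arrays together for tissue levels). Diets were compared with limma 3.58.1 in R 4.3.3 (lmFit, eBayes with an intensity trend, all 9 arrays of a tissue), with Benjamini-Hochberg adjustment over all kept probes and a threshold of 0.05; probes of one gene were kept apart. Precision is limited by 3 arrays per group. Nothing in the sources shows the pools to be independent sets of animals, so p-values measure the spread between these pools, which may be technical in part.

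The members, lists and rules were chosen with earlier results of these data known. Values are given array by array for up to 5 called probes of largest change per direction, tissue and comparison with non-overlapping arrays, for every kept probe of Pdhb, Dld, Fh1 and Pdk4, and for genes with probes called in opposite directions; the other genes named were chosen after their values were seen. All 61 member probes matched the GRCm38.p6 gene table. In simulated data in which few probes changed, the model recovered most of the larger known changes. Changes as widespread as those called in liver with UR were not simulated, so the simulation cannot judge the scaling there. Rank products, a test used in the study, were left out because their null is drawn over genes. No source used here gives the build behind the probe design.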

Additional observations from a re-analysis of the deposited data

Results flagged for a closer look

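Of 252 tests of whether a member probe's change differed between tissues, 112 passed, and the 25 below were either larger than 1 on the log2 scale or concerned probes called in opposite directions in the 2 tissues (11 of the 25); single arrays were not tested as outliers because groups held 3. For UR against the HFD, liver minus WAT, the differences were 2.34 for Idh2, 1.99 for Fh1 ILMN_2771754, 1.83 for Dld, 1.66 for Aco1, 1.50 for Pdhb ILMN_3116570, 1.38 and 1.31 for Mdh1 ILMN_2655677 and ILMN_2891176, 1.22 for Mdh2 and -1.03 for Pdk4. Liver minus muscle gave 1.68 for Idh2, 1.29 for Aco1, 1.10 for Mdh1 ILMN_2655677 and 1.06 for Mdh2.

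Probes called in opposite directions with UR were Dlst ILMN_1258698, lower in liver and higher in WAT and muscle (-0.72 for liver minus WAT and -0.48 for liver minus muscle), Pdp2 ILMN_2477276, higher in liver and lower in WAT and muscle (0.52 and 0.53), and Fh1 ILMN_2771754, lower in WAT and higher in muscle (-1.10 for WAT minus muscle).

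For the HFD against the ND, Pdk4 differed by -2.28 between liver and WAT and by -1.88 between liver and muscle. Rises in liver beside falls in the other tissue were those of Suclg2 ILMN_3122427 (0.93 for liver minus WAT), Pdha1 (0.79 for liver minus WAT) and Idh2 (0.53 for liver minus WAT and 0.75 for liver minus muscle), and Idh1 rose in WAT and fell in muscle (1.05 for WAT minus muscle).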

How the results depend on the processing

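Alternatives were median scaling, joint normalization of 27 arrays, neqc background correction, the authors' table, stricter and no detection filters, 1 probe per gene, no intensity trend, array weights, only the 6 arrays compared, a fold limit, a replicate block and leaving out each array. Among single-probe results, 1509 either kept a call in the same direction or stayed uncalled, and the sign of uncalled changes was not compared. A further 85 lost a call and 12 gained one. The last 2 changed sign and lost their call, Dlst ILMN_1237507 (0.081) and Suclg1 ILMN_1216493 (0.047) in liver with median scaling. With only the brightest probe of each gene, called members were 10, 7 and 16 of 27 genes in liver (UR against HFD, HFD against ND, UR against ND; 23, 11 and 30 probes otherwise), 0 in WAT for UR against HFD (limma; 11 at an unadjusted p under 0.05; 4 probes called otherwise; 6.98% of all genes) and 11, 7 and 3 in muscle (19, 12 and 8 otherwise). With an absolute log2 change over 0.5 as well, they were 12, 1 and 12 in liver, 0, 4 and 14 in WAT and 5, 2 and 1 in muscle, and over 1 for ND liver against WAT 24 (44 otherwise). WAT for UR against HFD gave 11 with array weights and 8 with only the 6 arrays compared. Apart from the 6.98% in WAT, shares of all probes or genes called are not given for these alternatives or those below. The counts show how far member calls moved, not whether members differ from the array.

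With 1 array left out, called members in liver were 19 to 23, 7 to 12 and 27 to 31, in WAT 1 to 5, 21 to 29 and 29 to 32, and in muscle 13 to 19, 9 to 13 and 4 to 9, in the same order of comparisons; between ND tissues they were 43 to 47, 48 to 50 and 47 to 48. Whether replicate numbers pair the pools is not given. Deviations of same-numbered arrays of 2 diets correlated between -0.15 and 0.20, which does not show pairing and cannot exclude it. With the replicate number as a block, calls were 23, 10 and 30 in liver, 4, 27 and 31 in WAT and 19, 13 and 10 in muscle. Small calls near the threshold are limited by 3 arrays per group, and in liver, where 55.1% of probes were called with UR, by the scaling.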

Other observations

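In ND mice, 13 of the 41 member probes kept in liver and muscle gave a signal over 4-fold lower in liver than in muscle. Their median change with UR in liver was 0.16, against -0.08 for the other 28, and they included Idh2, Mdh2, Dld, Pdhb ILMN_3116570, Fh1 ILMN_2771754 and Mdh1 ILMN_2655677, which rose, and Pdk4, which fell. Aco1, which rose in liver by 1.48, was instead higher in liver than in muscle by 1.06. Across these 41 probes the liver minus muscle level and the UR change in liver had Pearson's r of -0.42 and Spearman's rho of -0.31; across all 13982 probes kept in both tissues they were -0.30 and -0.30. This is a description across probes of the same arrays, which are not independent of each other, and it does not set the member probes apart from the rest of the array.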
